A study of Mus musculus with 2 samples.

Results

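The RNAs of RNase MRP, RNase P, the signal recognition particle, telomerase and the Ro particle, with the Cajal body RNA Scarna2, were examined in the chromatin fraction of mouse macrophages. They were found by the GENCODE M21 gene symbols Rmrp, Rpph1, Rn7s1, Rn7s2, Terc, Scarna2, Rny1 and Rny3. These 8 symbols covered 9 gene entries of 55536 in all, because Rmrp is annotated under 2 overlapping entries, and each entry held 1 transcript.

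RNase MRP and RNase P are related ribonucleoprotein enzymes that share most of their proteins. RNase P removes the 5′ leader of precursor tRNAs, whereas RNase MRP works in the nucleolus on precursor ribosomal RNA. The 7SL RNA is the scaffold of the signal recognition particle, which brings ribosomes that make secreted and membrane proteins to the endoplasmic reticulum. Terc carries the template from which telomerase copies telomere repeats, Scarna2 guides 2′-O-methylation of a spliceosomal RNA in Cajal bodies, and Y RNAs bind the Ro60 protein. RNA polymerase III makes all of these RNAs except Terc and Scarna2, which are products of RNA polymerase II. None of them is known as a product of splicing, so an unspliced, chromatin-bound precursor cannot be told from the mature RNA by introns.

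The libraries were made from bone marrow-derived macrophages of strain C57BL/6J, which are cells grown from mouse marrow. All cells were at the 0 minute point of a series with lipid A (100 ng/ml), the endotoxin part that activates Toll-like receptor 4, so no treated and untreated groups can be compared. Total RNA of the chromatin fraction was depleted of ribosomal RNA and sequenced in 2 libraries of this 1 group, labelled as biological replicates and started from 250 ng (replicate 1) and 500 ng (replicate 2) of nucleic acid, with a stated size range of 250 to 400. Both replicates carry the same donor entry, and sex and age were not recorded. Separate animals are therefore not documented, and the spread between the replicates may be technical. Since a group of 2 libraries with unequal input gives no test of a difference, every comparison below is a description.

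The gene tables held 10970767 expected counts in replicate 1 and 14207280 in replicate 2. Expected counts are reads shared out by a model over the entries they fit. RPM below is an entry's share of the expected counts on annotated genes, scaled to a total of 1000000. All 8 macrophage markers examined reached 1 TPM in both libraries, against 4 of 22 markers of 7 other cell types. These were 1 of 3 endothelial, 1 of 3 erythroid and 2 of 3 megakaryocyte markers. Summed TPM of the endothelial markers was 51.7 and 50.2 in replicates 1 and 2, against 713 and 606 for the macrophage markers. It was 11.1 and 5.72 for the erythroid and 15.0 and 4.51 for the megakaryocyte markers. Counts on mitochondrially encoded mRNAs, which are made outside the nucleus, were 0.0609% and 0.0338% of the total in replicates 1 and 2. Genes at a ribosomal DNA copy took 23.4% and 17.7%, so RPM depends on whether they stay in the total. In bulk libraries, fewer cells and less RNA per cell cannot be told apart.

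The Rmrp locus is shown because its 2 entries differ only at their ends. The longer, lincRNA entry (ENSMUSG00000115420.1, chr4:43492783-43493063, minus strand, GENCODE M21 on mm10) has 281 bases and the small RNA entry of type ribozyme (ENSMUSG00000088088.1, chr4:43492788-43493058) has 271. Capitals mark the bases that only the longer entry has, 5 at each end:
Rmrp: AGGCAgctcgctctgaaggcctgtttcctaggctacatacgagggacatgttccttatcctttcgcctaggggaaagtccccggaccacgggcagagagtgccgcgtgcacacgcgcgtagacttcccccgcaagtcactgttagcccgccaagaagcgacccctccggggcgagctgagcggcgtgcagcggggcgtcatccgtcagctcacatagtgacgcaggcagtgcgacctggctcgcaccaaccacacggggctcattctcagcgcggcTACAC
RefSeq gives the RNA as 275 bases on the same assembly, 1 base longer at the 5′ end and 3 longer at the 3′ end than the small RNA entry. Neither GENCODE entry therefore has the RefSeq ends. Every 31-base window of the small RNA entry occurs in the longer entry, so a read inside the shared 271 bases fits both.

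The 7SL copies cannot be told apart by sequence. Rn7s1 (ENSMUSG00000099021.1, chr12:69159295-69159594, plus strand) and Rn7s2 (ENSMUSG00000099250.1, chr12:69361182-69361481, minus strand) were identical at 300 of 300 bases. In all, 16 entries outside the members shared a 31-base window with 7SL. Together they held 3.41 and 4 expected counts in the gene tables, and 57.7 and 79.3 in the second transcript table.

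The RNase P RNA is shown because most of it is also an exon of another gene. The first 300 of the 319 bases of Rpph1 (ENSMUSG00000092837.1, chr14:50807449-50807767, minus strand) follow, with capitals for positions 36 to 268, which also lie in an exon of Ccnb1ip1 on the same strand:
Rpph1: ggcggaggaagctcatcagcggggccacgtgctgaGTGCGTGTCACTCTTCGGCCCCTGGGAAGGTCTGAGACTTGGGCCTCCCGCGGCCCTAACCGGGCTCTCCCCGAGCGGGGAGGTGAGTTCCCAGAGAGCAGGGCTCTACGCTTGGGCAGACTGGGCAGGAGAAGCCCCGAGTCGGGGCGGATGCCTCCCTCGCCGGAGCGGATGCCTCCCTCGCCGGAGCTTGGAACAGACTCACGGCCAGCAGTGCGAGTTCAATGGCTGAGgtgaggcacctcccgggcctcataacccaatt
Ccnb1ip1 held 0 expected counts in both gene tables and 7.16 and 5.10 in the second transcript table. Only 73 bases separate Rpph1 from the start of Parp2, a DNA repair enzyme gene that runs the other way. The 100 bases before Rpph1 and its first 20 bases, read from the RefSeq window at Parp2 (GRCm38.p6, chr14:50807748-50807867, minus strand), hold the octamer ATGCAAAT, in capitals, which is the core motif that Pou2f1 binds:
Rpph1 upstream: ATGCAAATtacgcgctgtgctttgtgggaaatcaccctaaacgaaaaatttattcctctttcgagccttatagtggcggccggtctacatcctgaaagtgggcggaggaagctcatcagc
On either strand, ATGCAAAT was in 0.703% of 32851 windows of the same length at RefSeq gene starts. The octamer forms the first letters of the printed window, 100 bases before Rpph1. Whether the window holds it thus depends on where the window begins, and this share does not measure how unusual the match is. The exact letters TATAA matched this window only on the opposite strand, and matched 11.3% of all windows on either strand. The printed strand reads TTATAG at that place. Looser TATA-like letters were not searched, so the absence of a TATA element on the printed strand is not shown. Such matches describe the letters and show no binding.

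The Y RNAs are shown because they are the shortest members. Rny1 (ENSMUSG00000065701.1, chr6:47788069-47788180, minus strand) has 112 bases and Rny3 (ENSMUSG00000064945.1, chr6:47781624-47781725, plus strand) has 102. Capitals mark the longest run they share, 12 bases, and both end in 4 T, the form of an RNA polymerase III terminator:
Rny1: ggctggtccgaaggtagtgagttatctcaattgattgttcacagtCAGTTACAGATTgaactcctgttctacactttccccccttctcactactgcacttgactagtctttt
Rny3: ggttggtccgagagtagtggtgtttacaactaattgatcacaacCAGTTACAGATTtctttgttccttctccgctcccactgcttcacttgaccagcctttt
In an alignment of 112 columns 81 bases (72.3%) were identical. Of 82 windows of 31 bases in Rny1, 31 also occurred in Gm26168, whereas Rny3 shared none with any other entry.

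Terc (ENSMUSG00000064796.1, chr3:96414437-96414859, minus strand) has 423 bases, of which the first 100 are given with the telomere template letters in capitals at positions 28 to 35:
Terc: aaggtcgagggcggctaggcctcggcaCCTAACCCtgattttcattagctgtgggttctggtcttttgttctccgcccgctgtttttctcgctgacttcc
Scarna2 (ENSMUSG00000088185.1, chr3:108554338-108554751, minus strand) has 414 bases, and its last 100 are given because RefSeq annotates only 61 bases, positions 350 to 410, in capitals:
Scarna2: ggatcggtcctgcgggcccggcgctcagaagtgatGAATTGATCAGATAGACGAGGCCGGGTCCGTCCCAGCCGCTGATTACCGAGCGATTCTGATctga
Neither Terc nor Scarna2 shared a 31-base window with another gene entry. Their counts therefore do not rest on a split between copies in this annotation.

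Of the 9 member entries, 7 held at least 10 expected counts in both libraries, against 26.2% of all 55536 genes. The 2 without were the Y RNAs. Summed over the members, 96213 and 118272 expected counts were 0.880% and 0.835% of the counts on annotated genes (8574 ± 319.8 RPM, SD, n = 2). In the second transcript table the sum was 5456 ± 133 RPM of that table's total, so the level depends on the table by more than the replicates differ. Rmrp and 7SL made up most of these counts in both libraries.

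Rmrp was the most abundant of the members per base. Its small RNA entry held 38486 expected counts in replicate 1 and 69233 in replicate 2, and its lincRNA entry held 16638 and 12996. The small RNA entry thus held 3520 and 4886 RPM (4203 ± 966 RPM, SD, n = 2), and the lincRNA entry 1522 and 917 RPM (1219 ± 427 RPM). The entries moved in opposite directions between the libraries. Their sum rose from 5042 to 5804 RPM (5423 ± 539 RPM), less than the small RNA entry did.

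The split between the Rmrp entries differed between libraries and between tables. The small RNA entry took 69.8% of Rmrp counts in replicate 1 and 84.2% in replicate 2 (77.0 ± 10.2%, SD, n = 2). The second transcript table, made from the same libraries and laid out differently, gave it 61.3% and 79.9%. The lincRNA entry kept 23295 and 18436 counts there. The deposited posterior SD of the expected count, which covers only the sharing of reads, was 228 and 221 counts for each entry. It is at most 1.70% of an entry's count, so it was smaller than the gap between the tables.

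**Figure D1:**
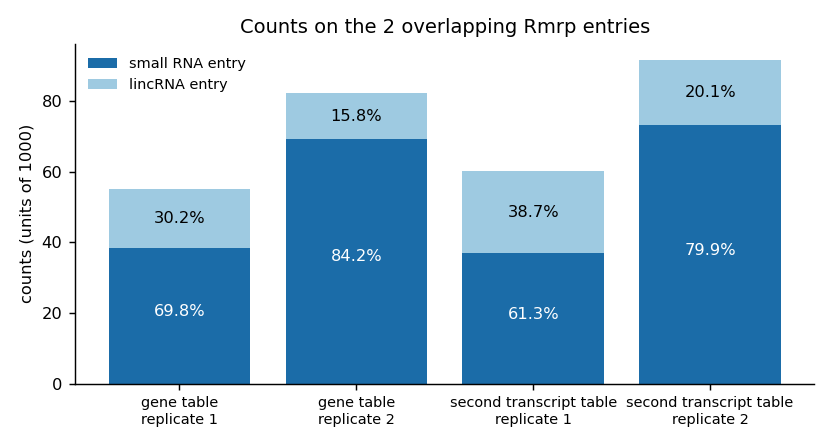
Counts (stacked bars, axis in units of 1000) on the small RNA entry and the lincRNA entry of Rmrp, by table and replicate, with the share of each entry printed in its bar. The share of the small RNA entry was higher in replicate 2 in both tables, 84.2% against 69.8% in the gene table and 79.9% against 61.3% in the second transcript table.

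Rpph1, the RNase P RNA, was far lower than its relative Rmrp. It held 1871 and 3047 expected counts, or 171 and 215 RPM (193 ± 31.1 RPM, SD, n = 2), and the posterior SD was at most 0.28 counts. The second transcript table gave 2086 and 3344 counts. Per kilobase of annotated RNA, Rmrp with both entries summed was 33.4 times the Rpph1 level in replicate 1 and 30.6 times in replicate 2. The gap depends on the measure and was wider in the deposited TPM of the gene table. That was 82963 and 89327 for the Rmrp sum against 1851 and 2103 for Rpph1. The RNAs themselves aligned with 51.8% identity.

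The mouse copies of the RNase P RNA named Rprl1, Rprl2 and Rprl3 had no count in the gene table, and at most 1 count in each library of the second transcript table. Rprl3 shared 13 and Rprl2 shared 4 of 289 windows of 31 bases with Rpph1. Most of Rpph1 thus has no identical stretch of that length in these copies.

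The 7SL copies held 16286 expected counts each in replicate 1 and 13580 each in replicate 2, or 32572 and 27160 together. The sum was 2979 and 1917 RPM (2448 ± 751 RPM, SD, n = 2). The even split follows from the identical sequences, and the posterior SD of a single copy was 16.1% of its count in replicate 1 and 21.7% in replicate 2. The sum therefore describes 7SL, and the copies say nothing of which locus was transcribed. The flanking genes of the copies were unequal, with 38 and 38 counts on Rps29 and 3 and 4 on Lrr1 beside Rn7s1, and 1922 and 2658 on Nemf beside Rn7s2. Gm18113, the pseudogene on the other side of Rn7s2, had none, nor did the miRNA entries Gm47287 and Gm47295 within Rn7s1 and Gm47299 and Gm47305 within Rn7s2.

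Scarna2 was the third in abundance. It held 6635 and 5826 expected counts, or 607 and 411 RPM (509 ± 138 RPM, SD, n = 2), with a posterior SD of 0. The second transcript table gave 7978 and 7333 counts. Gm43435, the closer of its neighbours at 715 bases, held 15 and 17.1 expected counts, and 1700013F07Rik, 9614 bases away on the other side, held none. The bases between these entries and Scarna2 have no counts of their own here.

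Terc was barely covered. It held 11 and 10 expected counts, which are 1.01 RPM (95% exact Clopper-Pearson interval 0.502 to 1.80) and 0.706 RPM (0.338 to 1.30). The intervals of the replicates overlap, and cover counting error only. The second transcript table gave 15 and 17 counts. Of its neighbours, Gm21960 held 5 and 9 counts and Gm24136 none in either table. Terc was thus above the limit of 3 counts that a count of 0 allows (0.274 and 0.212 RPM), but its level cannot be ordered between the libraries.

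The Y RNAs had 0 expected counts in both gene tables. The first transcript table, from which gene values were summed, gave an effective length of 0 to transcripts of up to 123 bases in replicate 1 and 125 in replicate 2. Effective length is the number of positions at which a fragment of the library could start. Both Y RNAs are shorter than that, as were 4689 and 4794 transcripts in all, which together held only 67.5 and 78.8 counts. The zeros therefore give no limit on the Y RNA level. In the second transcript table, which gave Rny1 effective lengths of 16.8 and 17.2 and Rny3 14.7 and 16.1, Rny1 held 3 and 1 counts and Rny3 held 2 and 2. As RPM of that table these are 0.157 and 0.0406 for Rny1, and 0.104 and 0.0811 for Rny3. All lie at or below its limit of 3 counts (0.157 and 0.122 RPM).

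Of the nearest annotated entries on each side of the Y RNAs, only Pdia4 held counts. The pseudogene Rpl31-ps7 between them and Gm25283, 144404 bases beyond Rny3, had no count, and Pdia4 beyond Rny1 held 125 and 197. Pdia4 codes for a protein disulfide isomerase of the endoplasmic reticulum and lies 7960 bases away.

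**Figure D2:**
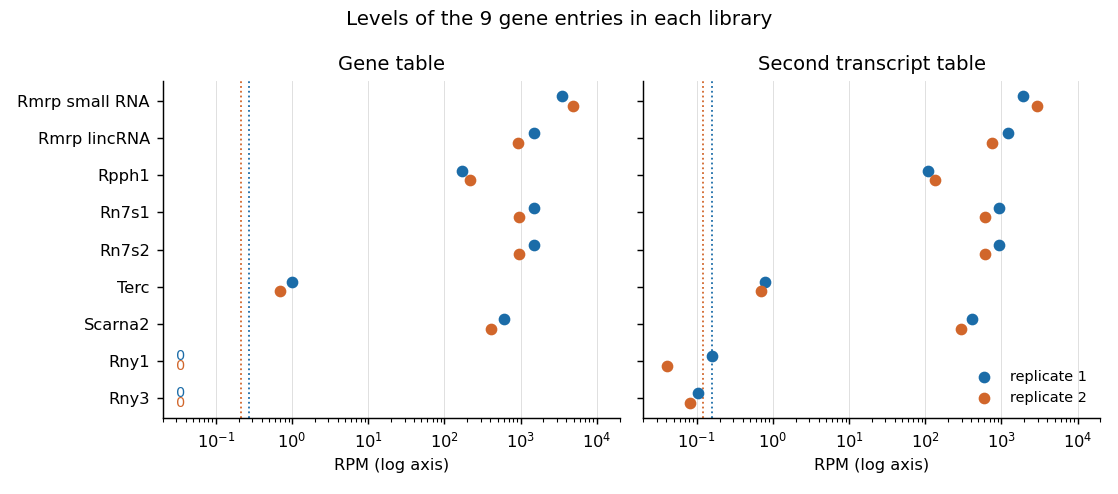
RPM (log axis) of each of the 9 gene entries in replicates 1 and 2, in the gene table (left) and in the second transcript table (right); dotted lines mark 3 counts in each library and 0 marks entries without a count. The Rmrp small RNA entry was highest at 3520 and 4886 RPM in the gene table, Terc stood at 1.01 and 0.706 RPM, and both Y RNAs lay at or below the dotted lines in the second table.

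Divided by annotated length, the order of the detected RNAs was Rmrp, 7SL, Scarna2, Rpph1 and Terc in both libraries. Rmrp stood at 17942 and 20653 RPM per kilobase (19297 ± 1917, SD, n = 2) and 7SL at 9930 and 6390 (8160 ± 2504). Scarna2 followed at 1466 and 993 (1230 ± 334), then Rpph1 at 536 and 674 (605 ± 97.4) and Terc at 2.38 and 1.67 (2.02 ± 0.502). No value of an RNA overlapped that of its neighbour in this order. The gap between Scarna2 and Rpph1 was narrow in replicate 2, at 1.47 times, against 2.73 times in replicate 1. The TPM of the gene table, which divides by effective length, gave the same order, although Scarna2 (3563 and 2140 TPM) and Rpph1 (1851 and 2103 TPM) nearly met in replicate 2. The second table's TPM also gave this order, with 1489 and 1448 for Scarna2 and 608 and 1024 for Rpph1.

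Effective length was well below the annotated length of each member, and the more so in the first table. In replicate 1 the first transcript table used 62.2 bases for the Rmrp small RNA entry, 82.9 for 7SL, 97.6 for Rpph1, 180 for Scarna2 and 188 for Terc. The second used 107, 129, 144, 225 and 233. With these, the members took 12.6% and 11.6% of all TPM in the gene table (12.1 ± 0.744%, SD, n = 2), and 3.70% and 4.99% in the second transcript table, against under 1% of counts in either library. In the second table, the transcripts with an effective length of 0 in the first took 43.2% and 20.0% of TPM on 0.680% and 0.274% of counts. That share differed between the libraries and enters each TPM of that table. The deposited TPM interval of the Rmrp small RNA entry in replicate 1, 52506 to 54278, did not hold its deposited TPM of 59723. The same was true of the Rmrp lincRNA entry, Rpph1 and Scarna2, and of each of these entries in replicate 2. The intervals of the 7SL copies and Terc held their TPM in both libraries.

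**Figure D3:**
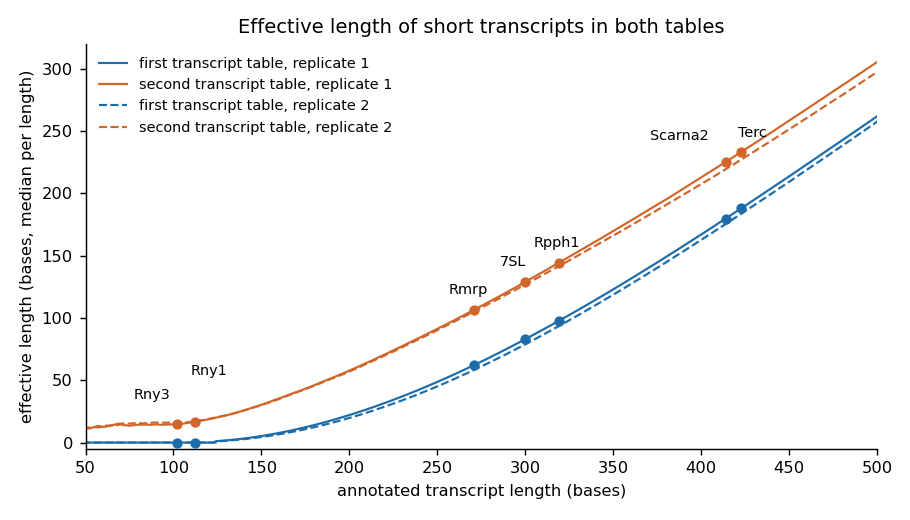
Effective length (median over transcripts of each length, in bases) against annotated transcript length in the first and second transcript tables, for replicate 1 (solid) and replicate 2 (dashed); points mark members in replicate 1. The first table's curve reaches 0 above the 102 and 112 bases of Rny3 and Rny1, and gives Rmrp 62.2 bases against 107 in the second.

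The tables were also compared entry by entry, as counts scaled to each table's total. None of the 7 member entries tested (mean of at least 10 counts in either table) lay past 2-fold in the same direction in both libraries, against 41.0% of 24563 genes. Only 15193 genes had such a mean in the gene table, so many of the 24563 entered through the second table alone. The share is not matched to the depth of the members, and does not show that they are unusually stable between tables. As log2 ratios of the second to the first table, the Rmrp small RNA entry was at -0.87 and -0.72, the lincRNA entry at -0.32 and -0.29, and Rpph1 at -0.65 and -0.66. Each 7SL copy was at -0.66 and -0.66, Scarna2 at -0.54 and -0.47 and Terc at -0.36 and -0.03. All were below 0, as the second table assigned 19156113 and 24646446 counts in all, many more than the first. In counts as deposited the second table was higher for each except the Rmrp small RNA entry in replicate 1 (ratio 0.959). In TPM, by contrast, 4 of the 7 lay past 2-fold in both libraries, against 31.4% of genes. They were the Rmrp small RNA entry, Rpph1 and the identical copies Rn7s1 and Rn7s2, so 7SL is counted for each copy.

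Replicates were compared as the log2 ratio of replicate 2 to replicate 1 on TMM-scaled expected counts plus 0.5. TMM scales libraries so that most genes have a ratio near 1. None of the 7 entries with a mean of at least 10 counts lay past 2-fold, against 2.90% of 15193 genes. In the 2010 genes that averaged 1000 counts or more 0.0995% did, and the 5th and 95th percentiles of their ratios were -0.30 and 0.27. Counted as distinct RNAs, with the 7SL copies and the Rmrp entries summed, 2 of 4 members at that depth lay outside this range, 7SL and Scarna2.

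The members fell on both sides of 0. The Rmrp small RNA entry was at 0.34, Rpph1 at 0.20 and the Rmrp sum at 0.07, while the Rmrp lincRNA entry was at -0.86, 7SL at -0.76, Scarna2 at -0.69 and Terc, on few counts, at -0.63. Of the 2010 deeply covered genes, member entries included, 6 had a lower ratio than the 7SL sum and 8 a lower ratio than Scarna2. For the Rmrp small RNA entry 53 had a higher ratio, but for the Rmrp sum 581 did. The place of Rmrp in this range therefore depended on the split between its entries, and that of 7SL did not. The ratio of summed Rmrp to summed 7SL counts was 1.69 in replicate 1 and 3.03 in replicate 2, and 1.67 and 3.06 in the second transcript table.

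Short genes varied more between these libraries than other genes did. Among 262 genes of up to 450 bases the median log2 ratio was -0.22, with 5th and 95th percentiles of -1.82 and 0.82, and 63 snoRNA and scaRNA genes had a median of -0.43. Over all 15193 genes the median was 0.002. The 7SL and Scarna2 ratios lie inside the range of short genes. That range takes in every short gene with a mean of at least 10 counts, members included. It is therefore not matched to the depth of 7SL and Scarna2, which lie outside the range of the 2010 deeply covered genes. The share of mitochondrially encoded mRNAs was lower in replicate 2 as well, 0.0338% against 0.0609%, and the input differed, 500 against 250 ng. Their part in the ratios was not tested.

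**Figure D4:**
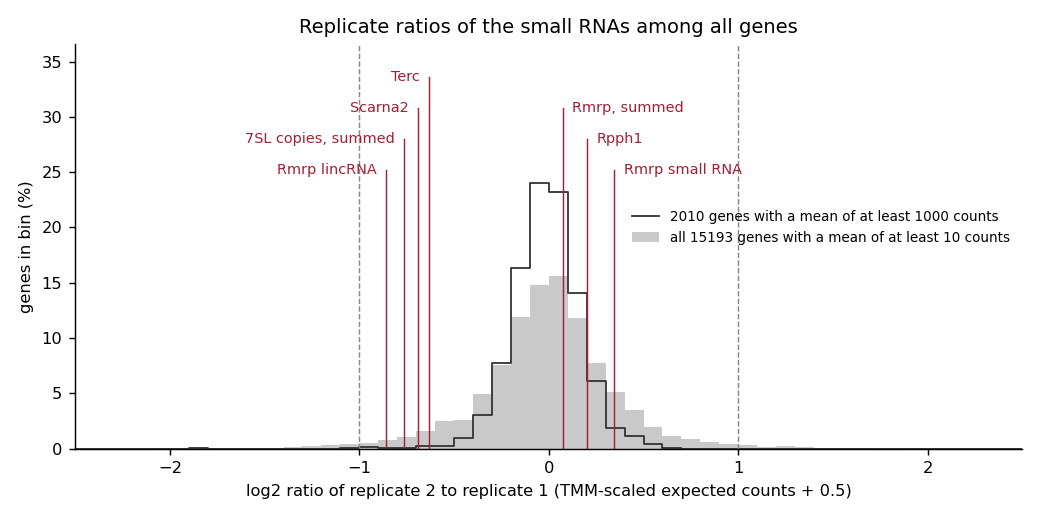
Log2 ratio of replicate 2 to replicate 1 of the members (red lines) over the distribution of 15193 genes averaging 10 counts or more (grey bars) and 2010 averaging 1000 or more (black outline), in percent of genes per bin; dashed lines mark 2-fold. Scarna2 (-0.69), 7SL (-0.76) and the Rmrp lincRNA entry (-0.86) lie left of the black outline's bulk, and the Rmrp sum (0.07) lies within it.

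Genes alike in 3 values, the replicate ratio and the ratio of the tables in each library, were sought in the 2009 genes that averaged 1000 counts or more and were in every table. Nearest to the Rmrp small RNA entry were Zbed6 (distance 0.0590 on the log2 scale), the snoRNA Gm22988 (0.131) and the 7SK RNA Rn7sk (0.176). Rn7sk, which holds the elongation factor P-TEFb inactive, had a replicate ratio of 0.47 on 13858 and 27153 counts. The identical copy Rn7s2, which has the same 3 values as Rn7s1, and the other members were left out. Nearest to Rn7s1 were then mt-Co1, a mitochondrially encoded subunit of cytochrome oxidase (0.261), Gm45222 (0.269) and Snora73a (0.290), all farther away than the genes nearest to Rmrp. Their replicate ratios were -0.99, -0.56 and -1.03 against -0.76 for Rn7s1. These distances describe 2 libraries and share their depth and input.

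Other small structural RNAs ran from no count to the level of Rn7sk, below that of Rmrp. The minor spliceosome RNA Rnu12 held 32 and 29 expected counts in the gene table but 342 and 746 in the second transcript table, with an effective length of 5.46 and 4.64 in the first. Vaultrc5, the vault RNA, held 2 and 1 counts and Rnu11 none. Rn7sk, at 1268 and 1916 RPM (1592 ± 459 RPM, SD, n = 2), held the most counts of these RNAs. Effective lengths in the gene table were only 2.27 and 1.89 for Rnu11, and 3.78 and 3.18 for Vaultrc5. Low counts of the shortest RNAs therefore do not show low levels.

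The genes around the members ranged from no count to levels far above the median protein-coding gene (0.74 and 0.67 TPM). Nemf, beside Rn7s2, was the highest at 91.9 and 87.5 TPM (89.7 ± 3.15 TPM, SD, n = 2). Ccdc107 overlaps Rmrp on the opposite strand and shares 94 of 241 windows with its small RNA entry. It held 29 and 49 expected counts, and strandedness is not stated in any source here, so some of these reads cannot be told from Rmrp. Sit1 on the one side of Rmrp had no count and Arhgef39 on the other held 31 and 60. Parp2 held 561 and 724 counts (58.1 ± 7.20 TPM, SD, n = 2) and Gm48938, beyond Rpph1, none.

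Genes for the proteins that work with these RNAs were next examined, from 7 lists chosen with earlier results of these data known. Of 69 such genes, 65 (94.2%) reached 1 TPM in both libraries, against 46.7% of 22028 protein-coding genes. None of the 65 with a mean of at least 10 counts lay past 2-fold between the replicates, against 1.93% of 11438 such protein-coding genes. TPM in the gene table is given as mean ± SD (n = 2) below.

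The protein genes of RNase MRP and RNase P were the lowest list, with 9 of 11 at 1 TPM or more and a median of 2.38 ± 0.339 TPM. Rpp21 (11.7 and 10.2 TPM, 10.9 ± 1.09) and Pop5 (8.87 and 7.22 TPM, 8.04 ± 1.17) were highest. Rpp25 was lowest at 0.08 and 0.05 TPM, on 1 count in each library. Its relative Rpp25l, the other gene below the threshold, held 3 and 13 counts and was named after its values were seen.

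The signal recognition particle and its receptor had all 10 genes detected and a median of 11.0 ± 1.47 TPM. Srp72, which binds 7SL together with Srp68, stood at 55.4 and 44.3 TPM (49.8 ± 7.80), and Srp54b, a gene of the GTPase that binds signal peptides, at 31.7 and 41.2 TPM (36.5 ± 6.71). Of the 31-base windows of Srp54a, Srp54b and Srp54c, 72.5%, 89.9% and 96.0% also occurred in another of these copies, and the deposited posterior SD reached 9.17% of the count of Srp54b. Summed, these copies held 78.4 and 81.7 TPM (80.1 ± 2.31), more than Srp72, so the order of single genes rests on that split. Srprb, a receptor subunit gene, was lowest at 3.92 and 5.04 TPM (4.48 ± 0.792).

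Telomerase and H/ACA protein genes had 6 of 8 detected and a median of 3.27 ± 0.212 TPM. Dkc1, the pseudouridine synthase that binds Terc, was highest at 12.3 and 13.2 TPM (12.8 ± 0.672), and Gar1 followed (5.54 ± 0.764 TPM). Tert, the reverse transcriptase of telomerase, held 0 and 1 counts in the gene table and 33.2 and 33.4 in the second transcript table, so the tables disagree on it. Nop10, the other gene below 1 TPM, stood at 0.89 and 0.75 TPM.

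The Y RNA binding proteins had 4 of 4 genes at 1 TPM or more and a median of 29.3 ± 1.64 TPM, although the Y RNAs had no usable count. Ptbp1, a splicing regulator gene, was highest at 47.8 and 47.7 TPM (47.8 ± 0.0919), and Ncl, the nucleolin gene, stood at 35.8 and 39.1 TPM (37.5 ± 2.38). Trove2, which codes for Ro60, was lowest at 2.72 and 2.80 TPM (2.76 ± 0.0566). All 6 Cajal body and box C/D genes were detected too (median 7.65 ± 0.138 TPM). Nop56 (29.3 ± 7.08 TPM) and Fbl, the methyltransferase fibrillarin (19.2 ± 3.10 TPM), were highest, and Coil, which codes for coilin of the Cajal body, was lowest (3.28 ± 0.834 TPM).

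RNA polymerase III genes were all detected, 11 of 11 subunit genes (median 10.2 ± 0.552 TPM) and 19 of 19 factor genes (median 10.5 ± 0.686 TPM). Of the paralogs of 1 subunit, Polr3gl was the highest of the list at 28.2 and 40.7 TPM (34.5 ± 8.89) and Polr3g the lowest at 1.32 and 1.77 TPM (1.54 ± 0.318). Polr3a, the largest subunit, stood at 19.7 ± 0.834 TPM. Brf1, the factor of tRNA-type and 5S promoters, was the highest factor gene at 84.7 and 75.7 TPM (80.2 ± 6.31), and Gtf3c2 of TFIIIC followed (53.5 ± 4.42 TPM). Snapc2, a subunit of the complex that acts at promoters such as those of Rmrp and Rpph1, was lowest at 1.36 and 1.66 TPM (1.51 ± 0.212). Other subunits of that complex, named after their values were seen, were higher: Snapc3 at 46.1 ± 2.08 TPM, Snapc4 at 44.0 ± 0.368 TPM and Snapc1 at 11.9 ± 2.43 TPM, with Snapc5 at 3.90 ± 0.969 TPM.

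**Figure D5:**
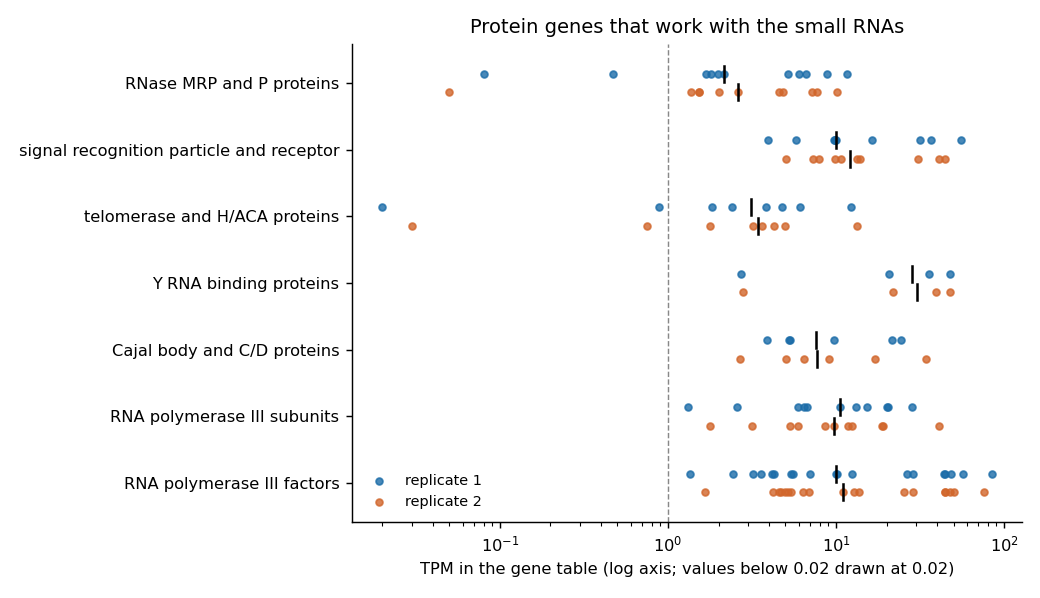
TPM (log axis) of 69 protein genes in the gene table by list, in replicates 1 and 2; black bars mark each list's median per library, the dashed line marks 1 TPM and values below 0.02 are drawn at 0.02. The lowest lists were the RNase MRP and P proteins (median 2.38 TPM) and the telomerase and H/ACA proteins (3.27 TPM), which hold the 4 genes left of the dashed line in at least 1 library.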

How the data were processed

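Total RNA of the chromatin fraction was measured in 2 libraries of 1 group. For each library the authors deposited gene values and 2 sets of transcript values. The deposited expected counts of the gene table and first transcript table have the column layout of RSEM and those of the second table that of kallisto. No source used here names tools, versions or strandedness. The deposited TPM divides expected counts by effective length. The labels name mm10, and GENCODE M21 identifiers matched all 55536 annotated genes in the gene table. Entries of no annotated gene (0.338% and 0.270% of counts) were left out of totals.

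RPM is expected counts scaled to a total of 1000000 on annotated genes. Replicate ratios used TMM factors from edgeR 4.0.16 in R 4.3.3 on 14576 genes, with DESeq2 1.42.0 size factors as an alternative, and expected counts rounded to whole numbers for both tools. With 1 library per input amount no test was run and no p-value is given. Shared sequence was counted as identical 31-base windows against all GENCODE M21 transcripts, on both strands. Intervals and the limit of 3 counts cover counting error only: no molecular identifiers are recorded, so reads may repeat a molecule. Python 3.11.15 with numpy 2.4.6, pandas 2.3.3, scipy 1.17.1, matplotlib 3.10.9 and Biopython 1.88 was used. The ratio step was tested on simulated data.

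The members and gene lists were chosen with earlier results of these data known. Named were all member entries, the 2 highest and the lowest gene of each protein list by mean TPM, the neighbours and overlapping entries of members, the 3 genes most alike Rmrp and Rn7s1, and other small structural RNAs. Alternatives were other scalings, prior counts and count minimums, the other tables, the members without the Rmrp lincRNA entry, and each library left out. Sums of entries that share sequence were added after seeing the data.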

Additional observations from a re-analysis of the deposited data

How the results depend on the processing

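Over the alternatives run, the log2 replicate ratio kept its sign for each of the 7 member entries. It ran from 0.34 to 0.51 for the Rmrp small RNA entry, from 0.20 to 0.33 for Rpph1, from -0.77 to -0.64 for 7SL and from -0.69 to -0.56 for Scarna2. No scaling, prior count or count minimum tried put a member past 2-fold between replicates. The summed level of 8574 RPM became 10815 RPM with the ribosomal DNA copy genes left out of the total, 5456 RPM in the second transcript table and 7354 RPM without the Rmrp lincRNA entry. With either replicate left out it lay between 8347 and 8800 RPM. Between tables, 0 entries past 2-fold by counts became 4 by TPM, both 7SL copies among them. TPM also divides by each table's own effective lengths, whose part in this change was not tested. With at least 50 counts required, 6 entries in place of 7 passed, as Terc dropped out. The share of Rmrp counts on the small RNA entry lay between 69.8% and 84.2% with a replicate left out, and at 70.6% in the second table. The count of protein genes at 1 TPM stayed at 65 or 66. No paired analysis was possible because there is 1 group. Depth limits Terc and the Y RNAs, and the effective length of 0 limits the Y RNAs in the gene table.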
